A study of Mus musculus with 9 samples.

Results

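The 47 genes described here encode proteins that bind, move or organise actin filaments, together with serum response factor (Srf) and its actin-sensing co-activators Mkl1 and Mkl2, whose current symbols are Mrtfa and Mrtfb. They were taken from a list of symbols that holds no actin isoform and that uses no measured value, though earlier results of these data were known when it was chosen. All 47 were matched to the 46603 Ensembl identifiers in the count files, 45 by their symbol and 2 by an older symbol, and all 47 were among the 14176 genes with enough counts to be tested.

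Actin filaments are built from monomers that profilin and thymosins hold in reserve, are started and branched by formins and the Arp2/3 complex, and are cut by cofilin. Non-muscle myosin pulls on filaments that tropomyosins coat and that α-actinin and filamin crosslink, and vinculin, talin, zyxin and other LIM-domain proteins anchor them at cell adhesions. Free actin monomer binds the Mkl proteins and keeps them from Srf, so that the genes of many of these proteins are themselves targets of an actin-sensing transcription factor.

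Mouse embryonic fibroblasts in which β-actin is knocked out (strain BALB/c, from embryos of day 10.5) were transfected for 6 h and their RNA was sequenced. One group received poly(I:C), a double-stranded RNA polymer, at 10 µg/ml, another received poly(dA:dT), a double-stranded DNA polymer, at 10 µg/ml, and mock cells received the carrier, Lipofectamine 2000 in Opti-MEM, alone. Each of the 3 groups held 3 libraries. All groups share the knockout, so the values describe cells that lack β-actin, and cells with intact β-actin were not analysed here. The labels give a cultured stock obtained from another laboratory and do not say whether it is 1 clone, nor whether the replicates were separate cultures, and p-values here cover nothing but the spread among these libraries, which may be technical.

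Counts assigned to genes summed to 16082772 to 22382837 per poly(I:C) library, 20738109 to 23185293 per poly(dA:dT) library and 19826550 to 29219797 per mock library. The lowest count of any of the 47 genes in a library was 313, for Mylk, and the highest was 59486, for Flna. Actb, the knocked-out gene, averaged 32.4 ± 1.34 CPM after poly(I:C), 30.6 ± 1.29 CPM after poly(dA:dT) and 33.3 ± 1.29 CPM in mock (CPM, counts relative to library size, SD, n = 3 each) and was not called in any comparison of the edgeR fit. The extent of the deletion is not in the labels, and the source of these reads was not tested. Among the fibroblast markers, Col1a1, Vim and Fn1 stood at 2996, 2265 and 1925 CPM in mock, whereas Dcn stood at 7.84, Thy1 at 1.55 and Lum at 0.0119 CPM. The summed level of the 11 fibroblast markers was 6472 to 6772 CPM after poly(I:C), 7270 to 7391 CPM after poly(dA:dT) and 7536 to 7701 CPM in mock. Summed macrophage markers reached 3.66, 3.51 and 4.9 CPM at most in the poly(I:C), poly(dA:dT) and mock groups, with Ptprc at 0 in all libraries, and 5 endothelial markers summed to 5.58 to 6.84, 3.7 to 4.88 and 1.95 to 2.62 CPM in the same order. Skeletal and cardiac muscle markers summed to 11.7 to 14.6 CPM after poly(I:C), 18.9 to 19.7 CPM after poly(dA:dT) and 17 to 21.6 CPM in mock, with Myod1 and Ckm at 0 in all libraries. Epithelial markers summed to 8.96 to 9.46, 8.74 to 9.68 and 9.13 to 10.5 CPM in that order, and neural markers, mostly Nes, to 361 to 369, 361 to 391 and 399 to 409 CPM. Mitochondrial transcripts took 0.42 to 0.44% of counts after poly(I:C), 0.259 to 0.263% after poly(dA:dT) and 0.317 to 0.323% in mock. Smooth muscle markers, nearly all Acta2, summed to 2232 to 2238 CPM after poly(I:C), 2680 to 2708 CPM after poly(dA:dT) and 3261 to 3325 CPM in mock, with Myh11 at 0.418, 0.45 and 0.23 CPM. The part of these markers in the results below was not tested.

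Transcripts of the actin-binding and contractile genes were mostly lower after either mimic, more so after poly(I:C). Their summed level was 15970, 15858 and 16094 CPM in the poly(I:C) libraries, 18529, 18605 and 18535 CPM in the poly(dA:dT) libraries, and 20704, 20662 and 20668 CPM in the mock libraries, so the groups did not overlap. The myosin light chain gene Myl6, at -0.88 ± 0.02 (SE) on the log2 scale after poly(I:C), the light chain gene Myl9, the thymosin gene Tmsb4x and the Arp2/3 subunit gene Arpc5 had the lowest values against mock. A smaller set rose, with the LIM-domain gene Fhl2 (0.80 ± 0.04), the membrane linker gene Ezr (0.56 ± 0.03) and the adhesion gene Zyx (0.48 ± 0.03) at its head. In bulk samples, fewer cells of a type and less RNA per cell cannot be told apart.

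After poly(I:C), 36 of the 47 genes were called lower than in mock, 7 were called higher and 4 were not called (edgeR quasi-likelihood test, Benjamini-Hochberg adjusted p under 0.05 over all genes tested). These are 76.6% lower and 14.9% higher, against 36.3% lower and 39.8% higher among all genes tested in this comparison. Their median log2 fold change was -0.37, with a range of -0.88 to 0.80, beside a median of 0.04 over all genes tested. A change of at least 1.5-fold was reached by 11 genes that fell and by Fhl2 alone among those that rose, where 8.18% and 21.7% of all genes did so. Scaled to total counts, without TMM, 11 genes were called higher, with Myh9, Mylk, Actn1 and Mkl2 added, and 32 lower, without Myh10, Vcl, Tln1 and Fhl1. CPM values lay below those of every mock library for 36 of the genes and above them for 6, against 36.5% and 40.3% of all genes tested.

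After poly(dA:dT), 32 genes were called lower than in mock, 9 higher and 6 were not called, while 26.2% of all genes tested were called lower and 26.6% higher. The median log2 fold change of the 47 was -0.14, with a range of -0.39 to 0.30, and that of all genes was 0.01. With total counts the median was -0.06, beside 0.08 over all genes, and 25 genes were called lower, without Cnn1, Myh10, Actn1, Actn4, Vcl, Fhl1 and Actr3. None of the 47 reached 1.5-fold in either direction, where 0.36% of all genes fell and 7.59% rose that far. Values lay below every mock library for 32 genes and above for 9, against 28.2% and 29.1% of all genes. The comparisons of both mimics use the same mock libraries and are not independent of each other.

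The 47 genes are abundant, with a median of 249 CPM where all genes tested have a median of 30.0 CPM, and abundant genes as a whole were lower after the mimics. Of the 47, 38 had a mean of at least 100 CPM, and after poly(I:C) 84.2% of these were called lower and 10.5% higher, with a median of -0.45. Among all 2700 tested genes at that level, 67.0% were called lower and 25.1% higher, with a median of -0.24. After poly(dA:dT), 76.3% of the 38 genes were called lower and 13.2% higher, with a median of -0.20, against 59.7% and 19.9% of the 2700, with a median of -0.11. The level of 100 CPM was chosen after the values were seen. Beyond these values, the part of abundance in the fall of the 47 genes was not tested.

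**Figure D1:**
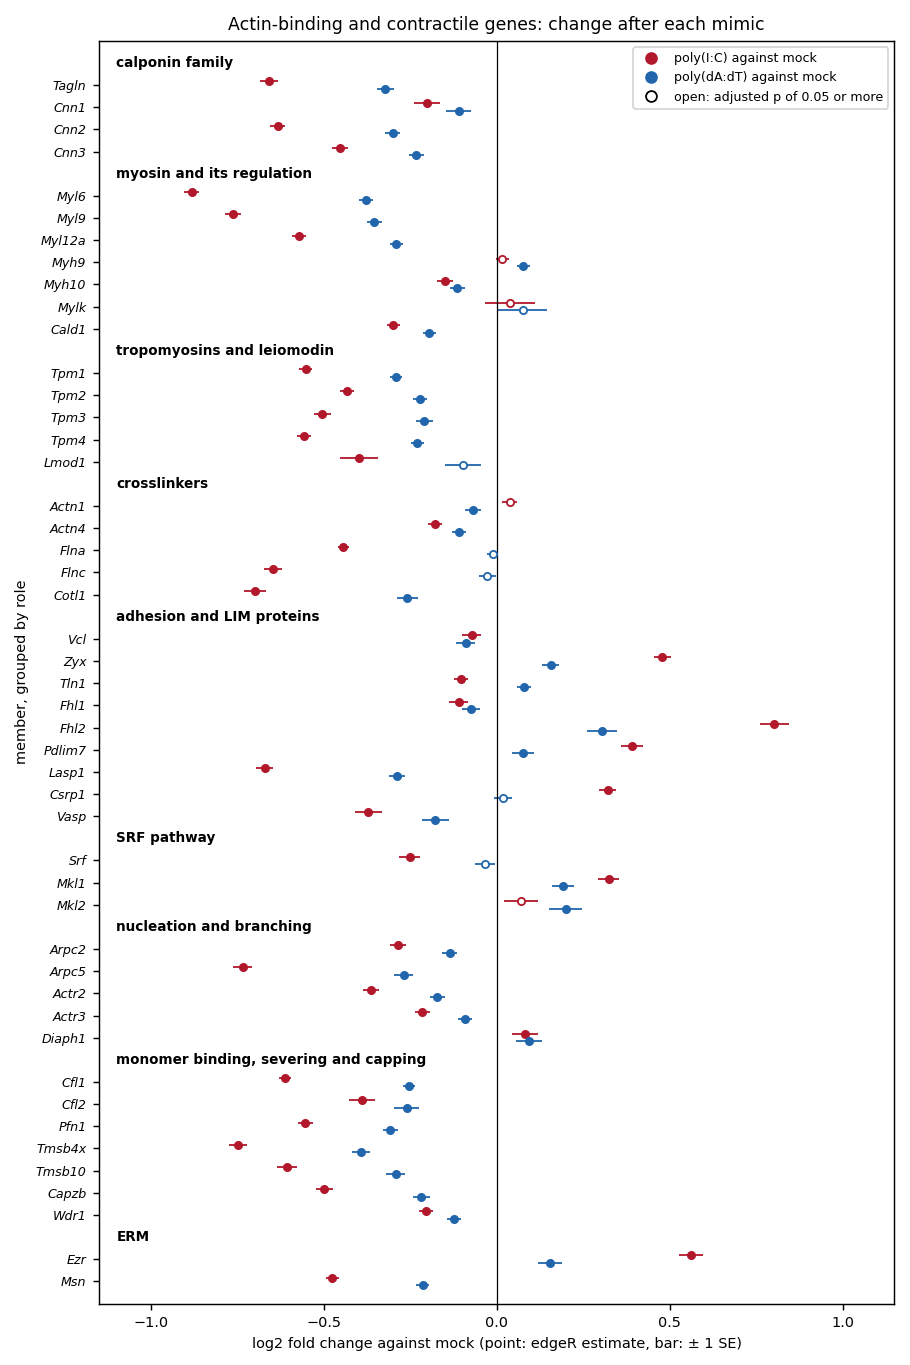
Log2 fold change of each of the 47 genes after poly(I:C) (red) and poly(dA:dT) (blue) against mock, grouped by role, with bars of 1 SE from edgeR and open points where the adjusted p was 0.05 or more. Most points lie left of 0, red points further left than blue, and Fhl2 at 0.80, Ezr at 0.56 and Zyx at 0.48 lie furthest right after poly(I:C).

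The 4 genes of the calponin family, whose products bind along actin filaments, were called lower after both mimics. Tagln (transgelin, ENSMUSG00000032085, chr9:45929619-45936058, minus strand, GRCm38 as are all positions here) had 161, 166 and 170 CPM in the poly(I:C) libraries, 214, 205 and 208 CPM after poly(dA:dT), and 261, 265 and 257 CPM in mock. The groups did not overlap, and the poly(dA:dT) libraries lay between the others. Its log2 fold change was -0.66 ± 0.03 (SE, edgeR adjusted p = 2.88e-55) after poly(I:C) and -0.32 ± 0.03 (SE, edgeR adjusted p = 1.69e-24) after poly(dA:dT), both against mock. Cnn2 averaged 281 ± 4.98 CPM after poly(I:C), 354 ± 6.02 CPM after poly(dA:dT) and 436 ± 1.84 CPM in mock (SD, n = 3 each), a log2 fold change of -0.63 ± 0.02 (SE) after poly(I:C) and -0.30 ± 0.02 after poly(dA:dT). Cnn3, at -0.45 ± 0.02 and -0.23 ± 0.02, had values nearer 0, and 17.7% of its exon bases are shared with a gene on the opposite strand, Gm42928, from which these unstranded libraries cannot separate it. Cnn1, the calponin best known from smooth muscle, had the values nearest 0 in the family, at -0.20 ± 0.04 after poly(I:C) and -0.11 ± 0.04 after poly(dA:dT). The poly(dA:dT) call of Cnn1 was lost without mock replicate 1 (-0.08, adjusted p = 0.124) and without poly(dA:dT) replicate 2 (-0.06, adjusted p = 0.191).

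The light chains of non-muscle myosin fell after both mimics, and Myl6 and Myl9 had the lowest fold changes of the 47 genes after poly(I:C). The heavy chain genes among the 47, Myh9 and Myh10, lay within 0.15 of mock on the log2 scale. Myh14, a heavy chain gene outside the 47, averaged 7.2 ± 0.701 CPM after poly(I:C), 9 ± 1.17 CPM after poly(dA:dT) and 9.06 ± 0.735 CPM in mock. Myl6, the essential light chain (ENSMUSG00000090841, chr10:128490860-128494145, minus strand), had 384, 364 and 360 CPM in the poly(I:C) libraries, 522, 531 and 521 CPM after poly(dA:dT), and 688, 679 and 677 CPM in mock. All 3 poly(I:C) libraries stood below all poly(dA:dT) libraries, and these below all mock libraries. This was a log2 fold change of -0.88 ± 0.02 (SE, edgeR adjusted p = 3.31e-85) after poly(I:C) and -0.38 ± 0.02 (SE, edgeR adjusted p = 1.27e-39) after poly(dA:dT). Only 1.83% of all genes tested had a fold change as low as that of Myl6 after poly(I:C) or lower. Myl9, a regulatory light chain (ENSMUSG00000067818, chr2:156775420-156781658, plus strand), had 268, 268 and 264 CPM in the poly(I:C) libraries, 360, 350 and 351 CPM after poly(dA:dT), and 449, 458 and 449 CPM in mock. Its groups were as cleanly apart, with fold changes of -0.76 ± 0.02 (SE, edgeR adjusted p = 2.14e-72) after poly(I:C) and -0.35 ± 0.02 (SE, edgeR adjusted p = 5.81e-34) after poly(dA:dT). Myl12a, another regulatory light chain, averaged 579 ± 9.72 CPM after poly(I:C), 703 ± 6.64 CPM after poly(dA:dT) and 860 ± 17.1 CPM in mock. Its values are uncertain, since Myl12b is a near-identical copy with which it can share reads. Myl12b itself stood at -0.73 ± 0.03 after poly(I:C) and -0.34 ± 0.03 after poly(dA:dT).

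Of the heavy chain genes, Myh9 averaged 1334 ± 55.4 CPM after poly(I:C), 1391 ± 28.4 CPM after poly(dA:dT) and 1319 ± 8.87 CPM in mock. Its fold change was 0.02 ± 0.02 (SE, edgeR adjusted p = 0.439) after poly(I:C) and 0.08 ± 0.02 (SE, edgeR adjusted p = 0.000179) after poly(dA:dT), so it was called higher after poly(dA:dT) alone. With upper-quartile factors, with total counts or with a floor of 50 counts in 3 libraries it was also called higher after poly(I:C), and in DESeq2's own test the poly(dA:dT) call was lost (adjusted p = 0.116). Myh10 was called lower after both mimics, at -0.15 ± 0.02 and -0.11 ± 0.02, and both calls were lost with total counts (-0.03 and -0.04). Mylk, the kinase that phosphorylates the regulatory light chains, was not called in any comparison, at 19.4 ± 0.917 CPM after poly(I:C), 19.9 ± 0.772 CPM after poly(dA:dT) and 18.8 ± 0.355 CPM in mock, though with total counts it was called higher after poly(I:C) (0.15, adjusted p = 0.0477). Cald1, caldesmon, which holds myosin off the filament, averaged 597 ± 8.06 CPM after poly(I:C), 642 ± 3.32 CPM after poly(dA:dT) and 735 ± 5.43 CPM in mock and was called lower after both mimics.

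All 4 tropomyosin genes, whose products coat the filament, fell after both mimics. Tpm1 averaged 709 ± 4.2 CPM after poly(I:C), 850 ± 9.68 CPM after poly(dA:dT) and 1040 ± 8.17 CPM in mock, a fold change of -0.55 ± 0.02 after poly(I:C) and -0.29 ± 0.02 after poly(dA:dT). Tpm2, Tpm3 and Tpm4 stood at -0.43 ± 0.02, -0.50 ± 0.03 and -0.56 ± 0.02 after poly(I:C), and at -0.22 ± 0.02, -0.21 ± 0.02 and -0.23 ± 0.02 after poly(dA:dT). Lmod1, a leiomodin that starts filaments in smooth muscle, was called lower after poly(I:C), at -0.40 ± 0.06 (SE, edgeR adjusted p = 5.29e-11), and was not called after poly(dA:dT), at -0.10 ± 0.05 (SE, edgeR adjusted p = 0.111).

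Among the crosslinkers, both filamin genes fell after poly(I:C) and stayed near mock after poly(dA:dT). Flna, filamin A (ENSMUSG00000031328, chrX:74223461-74249820, minus strand), had 1580, 1557 and 1595 CPM in the poly(I:C) libraries, 2091, 2152 and 2139 CPM after poly(dA:dT), and 2130, 2129 and 2176 CPM in mock. The poly(I:C) libraries lay far below the other 6, among which poly(dA:dT) and mock overlapped. Its fold change was -0.44 ± 0.02 (SE, edgeR adjusted p = 7.27e-59) after poly(I:C), -0.01 ± 0.02 (SE, edgeR adjusted p = 0.582) after poly(dA:dT), and -0.43 ± 0.02 (SE, edgeR adjusted p = 4.91e-57) for poly(I:C) against poly(dA:dT). Flnc, filamin C (ENSMUSG00000068699, chr6:29433256-29461883, plus strand), had 170, 167 and 173 CPM in the poly(I:C) libraries, 261, 264 and 259 CPM after poly(dA:dT), and 261, 268 and 270 CPM in mock. Again only the poly(I:C) libraries stood apart, with fold changes of -0.65 ± 0.03 (SE, edgeR adjusted p = 1.12e-55) after poly(I:C), -0.03 ± 0.02 (SE, edgeR adjusted p = 0.361) after poly(dA:dT) and -0.62 ± 0.03 (SE, edgeR adjusted p = 8.51e-53) between the mimics. The last was the lowest value of the 47 genes in that comparison, and 2.26% of all genes tested were as low or lower. Cotl1, coactosin-like protein, which binds filaments with cofilin's fold (ENSMUSG00000031827, chr8:119809222-119840544, minus strand), had 87.7, 83.7 and 88.9 CPM in the poly(I:C) libraries, 123, 114 and 116 CPM after poly(dA:dT), and 145, 141 and 136 CPM in mock. Its groups did not overlap, and it stood at -0.70 ± 0.03 (SE, edgeR adjusted p = 2.52e-46) after poly(I:C) and -0.26 ± 0.03 (SE, edgeR adjusted p = 5.17e-13) after poly(dA:dT). The α-actinin genes moved little: Actn4 was called lower after both mimics, at -0.18 ± 0.02 and -0.11 ± 0.02, and Actn1 was called lower after poly(dA:dT) alone, at -0.07 ± 0.02 (SE, edgeR adjusted p = 0.00677), a value that turned to 0.01 with total counts. Its poly(I:C) value, 0.04 ± 0.02 (SE, edgeR adjusted p = 0.133), was called higher with upper-quartile factors (0.07, adjusted p = 0.0038), total counts (0.15, adjusted p = 1.16e-09) and the floor of 50 counts (0.08, adjusted p = 0.000766).

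Of the 5 genes for the start and branching of filaments, 4 fell and 1 rose after each mimic. Arpc5, a subunit of the Arp2/3 complex (ENSMUSG00000008475, chr1:152766542-152775597, plus strand), had 131, 139 and 134 CPM in the poly(I:C) libraries, 185, 185 and 188 CPM after poly(dA:dT), and 220, 226 and 227 CPM in mock. The 3 groups were apart, and its fold change was -0.74 ± 0.03 (SE, edgeR adjusted p = 2.47e-58) after poly(I:C) and -0.27 ± 0.03 (SE, edgeR adjusted p = 4.79e-18) after poly(dA:dT). Other subunits of the complex among the 47 stood at other values after poly(I:C), with Arpc2 at -0.29 ± 0.02, Actr2 (Arp2) at -0.36 ± 0.02 and Actr3 (Arp3) at -0.21 ± 0.02. Of the subunits outside the 47, given further on, 4 lay between -0.79 and -0.55 after poly(I:C). Arpc5l, also outside the 47, stayed near mock. After poly(dA:dT) Arpc2, Actr2 and Actr3 stood at -0.14 ± 0.02, -0.17 ± 0.02 and -0.09 ± 0.02. Diaph1, a formin that extends unbranched filaments, was called slightly higher after both mimics, at 0.08 ± 0.04 (SE, edgeR adjusted p = 0.0425) after poly(I:C) and 0.09 ± 0.04 (SE, edgeR adjusted p = 0.0254) after poly(dA:dT). The poly(I:C) call of Diaph1 was lost when mock replicate 1 or 3, any 1 of the 3 poly(dA:dT) libraries or poly(I:C) replicate 3 was left out (0.04 to 0.08), and the poly(dA:dT) call without mock replicate 1 or 3 or poly(dA:dT) replicate 1 or 2 (0.07 to 0.10). Neither call held with DESeq2 size factors (0.06 after poly(I:C), adjusted p = 0.109, and 0.08 after poly(dA:dT), adjusted p = 0.0755), in DESeq2's test (adjusted p = 0.166 and 0.141) or with no filter (adjusted p = 0.277 and 0.0541), and the poly(I:C) call was also lost when the poly(dA:dT) libraries were kept out of the fit (adjusted p = 0.116).

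All 7 genes for monomer binding, severing and capping were lower after both mimics. Tmsb4x, thymosin β4, the main store of free actin monomer in many cells (ENSMUSG00000049775, chrX:167207093-167209315, minus strand), had 158, 160 and 156 CPM in the poly(I:C) libraries, 208, 195 and 204 CPM after poly(dA:dT), and 269, 260 and 267 CPM in mock. The groups were ordered with no overlap. Its fold change was -0.75 ± 0.03 (SE, edgeR adjusted p = 1.29e-61) after poly(I:C) and -0.39 ± 0.03 (SE, edgeR adjusted p = 1.59e-31) after poly(dA:dT), the lowest of the 47 genes after poly(dA:dT). Pfn1, profilin 1, which feeds monomers to growing ends (ENSMUSG00000018293, chr11:70651850-70654644, minus strand), had 515, 503 and 547 CPM in the poly(I:C) libraries, 628, 621 and 606 CPM after poly(dA:dT), and 768, 788 and 738 CPM in mock. The groups did not overlap, and it stood at -0.55 ± 0.02 (SE, edgeR adjusted p = 2.6e-39) after poly(I:C) and -0.31 ± 0.02 (SE, edgeR adjusted p = 1.61e-22) after poly(dA:dT). Cfl1, cofilin 1, averaged 1276 ± 15.2 CPM after poly(I:C), 1636 ± 15.5 CPM after poly(dA:dT) and 1950 ± 32.2 CPM in mock and stood at -0.61 ± 0.02 after poly(I:C) and -0.25 ± 0.02 after poly(dA:dT); 16.5% of its exon bases are shared with Snx32 on the opposite strand. The other 4, Tmsb10, Capzb (capping protein β), Cfl2 and Wdr1 (a cofilin partner), lay between -0.61 and -0.20 after poly(I:C) and between -0.29 and -0.12 after poly(dA:dT).

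**Figure D2:**
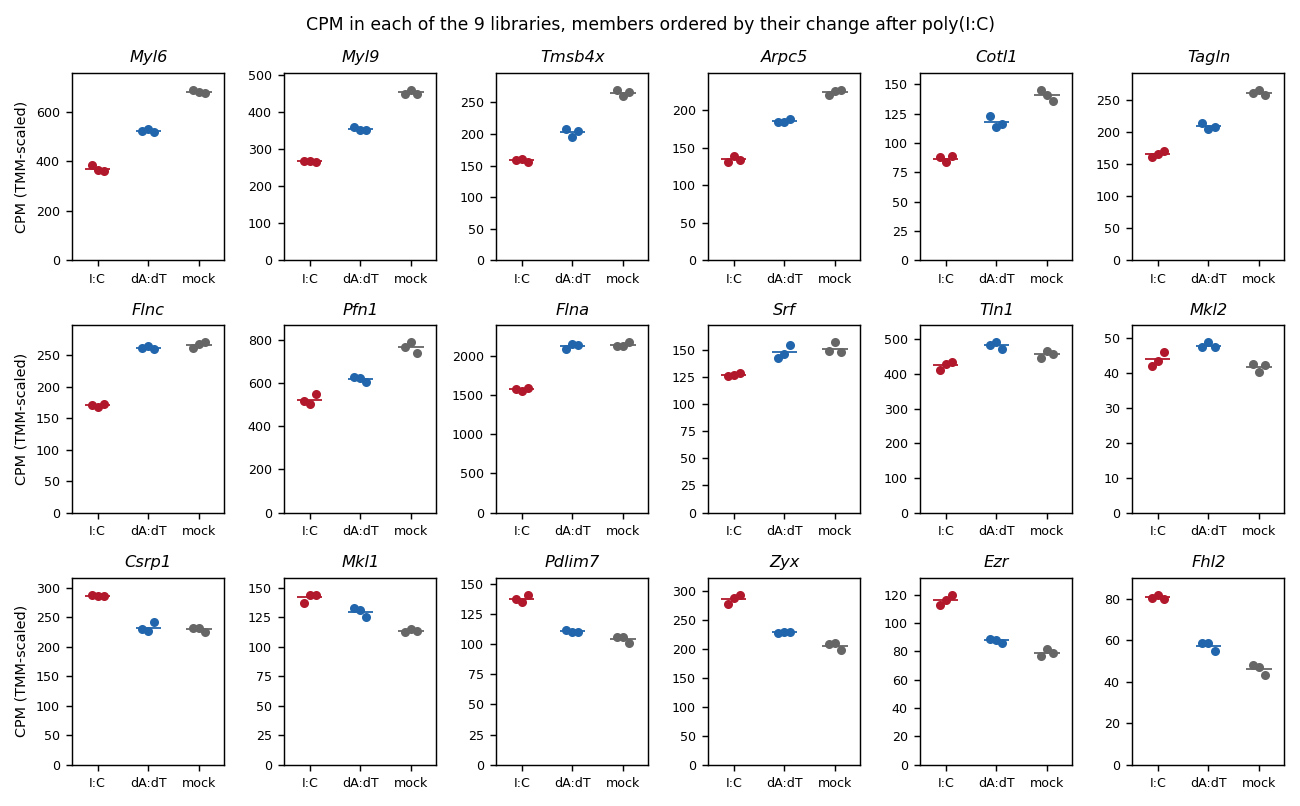
CPM of 18 of the genes in each of the 9 libraries, in panels ordered by their change after poly(I:C), with red points for poly(I:C), blue for poly(dA:dT), grey for mock, a line at the mean of 3 libraries and axes that start at 0. From Myl6 to Tagln the points are lowest after poly(I:C), then poly(dA:dT), then mock; Flnc and Flna are low after poly(I:C) and level in the other groups, and Fhl2, Ezr and Zyx are highest after poly(I:C).

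The pair of genes that link filaments to the membrane went opposite ways. Ezr, ezrin (ENSMUSG00000052397, chr17:6738041-6782784, minus strand), had 113, 116 and 120 CPM in the poly(I:C) libraries, 88.6, 88.3 and 86.1 CPM after poly(dA:dT), and 76.4, 81.6 and 78.5 CPM in mock. All poly(I:C) libraries exceeded all others, and all poly(dA:dT) libraries exceeded mock. Its fold change was 0.56 ± 0.03 (SE, edgeR adjusted p = 2.99e-34) after poly(I:C) and 0.15 ± 0.04 (SE, edgeR adjusted p = 8.46e-05) after poly(dA:dT). Msn, moesin, averaged 576 ± 6.13 CPM after poly(I:C), 690 ± 4.98 CPM after poly(dA:dT) and 800 ± 7.49 CPM in mock and stood at -0.48 ± 0.02 after poly(I:C) and -0.21 ± 0.02 after poly(dA:dT).

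The 9 adhesion and LIM-domain genes held 4 of the 7 genes that rose after poly(I:C), with 5 called lower. Fhl2, a LIM-only protein that binds Srf and integrin tails (ENSMUSG00000008136, chr1:43123074-43196984, minus strand), had 80.7, 82.1 and 80.1 CPM in the poly(I:C) libraries, 58.6, 58.6 and 54.8 CPM after poly(dA:dT), and 48.2, 47.3 and 43.2 CPM in mock. The 3 groups did not overlap, and poly(I:C) was highest. It stood at 0.80 ± 0.04 (SE, edgeR adjusted p = 1.67e-41) after poly(I:C) and 0.30 ± 0.04 (SE, edgeR adjusted p = 5.97e-10) after poly(dA:dT), the highest of the 47 genes in both. Its rise was not extreme among all genes, since 83.1% of those tested had an equal or lower fold change after poly(I:C). Zyx, zyxin (ENSMUSG00000029860, chr6:42349630-42360213, plus strand), had 278, 289 and 294 CPM in the poly(I:C) libraries, 228, 230 and 230 CPM after poly(dA:dT), and 209, 210 and 198 CPM in mock. Here too the groups were apart, at 0.48 ± 0.03 (SE, edgeR adjusted p = 1.89e-41) after poly(I:C) and 0.16 ± 0.03 (SE, edgeR adjusted p = 3.32e-08) after poly(dA:dT).

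Pdlim7, a PDZ and LIM protein of stress fibres (ENSMUSG00000021493, chr13:55495795-55513676, minus strand), had 137, 135 and 141 CPM in the poly(I:C) libraries, 112, 110 and 110 CPM after poly(dA:dT), and 106, 106 and 101 CPM in mock. Poly(I:C) stood well above the other groups, and poly(dA:dT) just above mock, at 0.39 ± 0.03 (SE, edgeR adjusted p = 2.9e-24) and 0.08 ± 0.03 (SE, edgeR adjusted p = 0.0332). The poly(dA:dT) call was lost when mock replicate 3 was left out (0.06, adjusted p = 0.175), when any 1 of the 3 poly(dA:dT) libraries was (0.07, 0.08 and 0.08), and in DESeq2's test (0.06, adjusted p = 0.167). Csrp1, a LIM protein that binds α-actinin and zyxin (ENSMUSG00000026421, chr1:135720061-135752232, plus strand), had 288, 285 and 286 CPM in the poly(I:C) libraries, 229, 227 and 241 CPM after poly(dA:dT), and 232, 232 and 224 CPM in mock. Only the poly(I:C) libraries stood apart, at 0.32 ± 0.02 (SE, edgeR adjusted p = 4.91e-26), while poly(dA:dT) against mock gave 0.02 ± 0.02 (SE, edgeR adjusted p = 0.573), a value that was 0.09 and called with total counts (adjusted p = 0.000822).

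Tln1, talin 1, which joins integrins to actin (ENSMUSG00000028465, chr4:43531519-43562691, minus strand), was the 1 gene called in opposite directions by the mimics. It had 412, 428 and 436 CPM in the poly(I:C) libraries, 484, 491 and 472 CPM after poly(dA:dT), and 447, 465 and 458 CPM in mock. The poly(I:C) libraries were the lowest and the poly(dA:dT) libraries the highest, with no overlap between groups. Its fold change was -0.10 ± 0.02 (SE, edgeR adjusted p = 5.89e-06) after poly(I:C), 0.08 ± 0.02 (SE, edgeR adjusted p = 0.000708) after poly(dA:dT) and -0.18 ± 0.02 (SE, edgeR adjusted p = 6.98e-14) between the mimics. With total counts the value after poly(I:C) was 0.01 (adjusted p = 0.65), so the fall against mock rests on the scaling. Lasp1, a LIM and SH3 protein of membrane ruffles, averaged 192 ± 1.06 CPM after poly(I:C), 251 ± 0.99 CPM after poly(dA:dT) and 307 ± 4.27 CPM in mock, at -0.67 ± 0.02 and -0.29 ± 0.02. Vasp, which extends filaments at adhesions, stood at -0.37 ± 0.04 after poly(I:C) and -0.18 ± 0.04 after poly(dA:dT). Vcl, vinculin, and Fhl1 were called slightly lower after both mimics, Vcl at -0.07 ± 0.03 and -0.09 ± 0.03, and Fhl1 at -0.11 ± 0.03 and -0.07 ± 0.03. With total counts the poly(I:C) values turned to 0.04 for Vcl and 0.00 for Fhl1. The call of Vcl after poly(I:C) was lost without mock replicate 1 (adjusted p = 0.0539), and that of Fhl1 after poly(dA:dT) without mock replicate 1, poly(dA:dT) replicate 1 or poly(dA:dT) replicate 3 (-0.07 to -0.06). Of the exon bases of Vcl, 25.5% are shared with Ap3m1 on the opposite strand.

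The transcription factor and its co-activators did not move together. Srf (ENSMUSG00000015605, chr17:46548329-46556175, minus strand) had 126, 127 and 129 CPM in the poly(I:C) libraries, 143, 146 and 155 CPM after poly(dA:dT), and 149, 157 and 148 CPM in mock. The poly(I:C) libraries lay below all others, and poly(dA:dT) overlapped mock. It stood at -0.25 ± 0.03 (SE, edgeR adjusted p = 1.14e-13) after poly(I:C), -0.03 ± 0.03 (SE, edgeR adjusted p = 0.338) after poly(dA:dT) and -0.22 ± 0.03 (SE, edgeR adjusted p = 1.45e-10) between the mimics. Mkl1 (ENSMUSG00000042292, chr15:81012281-81190757, minus strand) had 137, 144 and 144 CPM in the poly(I:C) libraries, 133, 131 and 125 CPM after poly(dA:dT), and 112, 115 and 113 CPM in mock. Both mimics were above mock in every library, at 0.32 ± 0.03 (SE, edgeR adjusted p = 3.65e-19) after poly(I:C) and 0.19 ± 0.03 (SE, edgeR adjusted p = 2.49e-08) after poly(dA:dT). Mkl2 (ENSMUSG00000009569, chr16:13256481-13417529, plus strand) had 41.9, 43.3 and 46 CPM in the poly(I:C) libraries, 47.3, 48.6 and 47.2 CPM after poly(dA:dT), and 42.5, 40.2 and 42.2 CPM in mock. It was highest after poly(dA:dT), at 0.20 ± 0.05 (SE, edgeR adjusted p = 0.000142), and its poly(I:C) libraries overlapped mock, at 0.07 ± 0.05 (SE, edgeR adjusted p = 0.192). With total counts Mkl2 was called higher after poly(I:C) too (0.18, adjusted p = 0.000409), as it was with a filter of at least 50 counts (0.11, adjusted p = 0.0282).

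The CArG box is the element that Srf binds, and 5 promoters that hold one are printed here, beside those of a pair of risers with another element. RefSeq promoter windows (build GRCm38.p6, 250 bases before to 50 after each start site) were found for 44 of the 47 genes, as 56 windows, with none for Tagln, Cotl1 and Diaph1. A CArG box was present on either strand in 8 of the 56 windows (14.3%), belonging to Cnn2, Myl6, Myl9, Vcl, Fhl1, Fhl2 and Srf, where 535 of 32851 windows of all genes (1.63%) held one. The list was partly drawn up around Srf, so this share describes the list and does not test it. Of the 34 genes with a window that fell after poly(I:C), 6 held a CArG box, as did 1 of the 6 that rose, Fhl2. The motif TGANTCA takes in TGAGTCA and TGACTCA, the sites of AP-1 factors, and was searched on both strands. It stood in 7 of the 56 windows (12.5%), against 7.81% of all windows. It occurred in 2 of the 6 risers with a window, Zyx and Ezr, and in 3 of the 34 that fell. Of those 3, Actn4 holds TGAATCA, which is neither of these AP-1 sites. The core of the element bound by interferon regulatory factors, GAAA followed after any 2 bases by GAAA, stood on either strand in 1 window (1.79%), that of Mylk, against 3.44% of all windows. None of the windows that hold a CArG box also held TGANTCA or this core.

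The sequences run 5′ to 3′ along each gene, and capitals mark CArG boxes in the first 5 and TGANTCA in the last 2.
Myl6 (chr10:128492960-128493259, minus strand): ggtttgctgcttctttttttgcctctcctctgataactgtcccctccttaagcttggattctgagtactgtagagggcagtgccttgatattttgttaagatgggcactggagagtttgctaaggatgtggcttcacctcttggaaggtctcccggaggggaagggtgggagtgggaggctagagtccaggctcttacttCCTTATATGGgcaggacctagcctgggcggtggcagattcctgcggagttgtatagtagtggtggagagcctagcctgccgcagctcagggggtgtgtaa
Myl9 (chr2:156775214-156775513, plus strand): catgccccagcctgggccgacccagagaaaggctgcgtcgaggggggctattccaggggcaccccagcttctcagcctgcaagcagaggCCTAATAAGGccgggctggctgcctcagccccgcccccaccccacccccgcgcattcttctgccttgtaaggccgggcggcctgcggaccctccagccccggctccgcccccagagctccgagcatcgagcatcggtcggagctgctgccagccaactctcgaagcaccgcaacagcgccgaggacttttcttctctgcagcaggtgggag
Cnn2 (chr10:79988350-79988649, plus strand): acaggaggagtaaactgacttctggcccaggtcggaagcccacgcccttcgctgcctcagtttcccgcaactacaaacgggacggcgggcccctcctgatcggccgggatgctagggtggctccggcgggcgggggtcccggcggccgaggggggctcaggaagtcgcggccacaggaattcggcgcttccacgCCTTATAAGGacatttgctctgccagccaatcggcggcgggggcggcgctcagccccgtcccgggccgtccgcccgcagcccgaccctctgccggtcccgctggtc
Srf (chr17:46556113-46556412, minus strand): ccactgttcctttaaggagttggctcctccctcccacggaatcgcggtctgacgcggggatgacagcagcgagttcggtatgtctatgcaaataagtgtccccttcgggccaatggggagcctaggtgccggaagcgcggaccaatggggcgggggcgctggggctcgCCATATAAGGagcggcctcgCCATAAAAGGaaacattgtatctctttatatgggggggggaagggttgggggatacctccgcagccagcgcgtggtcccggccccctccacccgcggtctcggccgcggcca
Fhl2 (chr1:43196712-43197011, minus strand): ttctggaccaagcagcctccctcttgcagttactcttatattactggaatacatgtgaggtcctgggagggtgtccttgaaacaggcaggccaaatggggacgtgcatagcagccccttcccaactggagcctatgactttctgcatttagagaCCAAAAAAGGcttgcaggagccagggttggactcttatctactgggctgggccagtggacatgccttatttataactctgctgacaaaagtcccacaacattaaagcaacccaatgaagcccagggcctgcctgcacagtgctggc
Zyx (chr6:42349578-42349877, plus strand): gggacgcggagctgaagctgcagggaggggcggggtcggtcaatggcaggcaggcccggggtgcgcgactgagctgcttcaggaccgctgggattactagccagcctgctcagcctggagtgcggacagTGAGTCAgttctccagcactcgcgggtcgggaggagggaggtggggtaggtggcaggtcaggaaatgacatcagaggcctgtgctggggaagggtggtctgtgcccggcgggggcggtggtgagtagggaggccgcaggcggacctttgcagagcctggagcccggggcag
Ezr (chr17:6782731-6783030, minus strand): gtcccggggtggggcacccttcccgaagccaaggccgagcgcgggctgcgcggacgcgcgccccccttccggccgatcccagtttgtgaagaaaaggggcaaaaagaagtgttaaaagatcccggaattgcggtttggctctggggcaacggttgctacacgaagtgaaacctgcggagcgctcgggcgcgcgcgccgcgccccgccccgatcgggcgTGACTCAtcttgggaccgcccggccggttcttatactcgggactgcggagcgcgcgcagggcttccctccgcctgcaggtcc
The boxes of Myl6, Myl9 and Cnn2, genes that fell after both mimics, begin 50, 161 and 56 bases before the start site. Those of Srf begin 82 and 62 bases before it, and that of Fhl2, which rose, 96 bases before it. A second Fhl2 start, further into the gene, has its own box 31 bases ahead, CCTTATATGG, the same letters as in Myl6. The Myl6 window printed here also belongs to a start further into its gene. Another Myl6 window, nearer the 5′ end (chr10:128493837-128494136), holds no CArG box. The TGANTCA matches of Zyx and Ezr begin 121 and 32 bases before the start. A match says only that these letters occur in the window.

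Set directly against poly(dA:dT), poly(I:C) gave lower levels for 35 of the 47 genes, higher levels for 7, and no call for 5, beside 32.1% and 31.3% of all genes tested. The median was -0.19, with a range of -0.62 to 0.50, and that of all genes was 0.00. Values lay below every poly(dA:dT) library for 33 genes and above for 7, against 33.2% and 32.9% of all genes. Flnc alone was lower by at least 1.5-fold and none was higher, where 2.41% and 12.5% of all genes were. Among tested genes of at least 100 CPM, 78.9% of the 38 and 61.8% of all 2700 were called lower. Mean levels were lowest after poly(I:C), intermediate after poly(dA:dT) and highest in mock for 34 genes, had the opposite order for 6, and followed neither order for 7. Called lower in all 3 comparisons were 28 genes, and called higher in all 3 were Fhl2, Ezr, Zyx, Pdlim7 and Mkl1. For the order of means and for calls in all 3 comparisons, no share over all genes tested is given here. Whether these counts are unusual was not tested. Fhl2 stood at 0.50 ± 0.04 (SE, edgeR adjusted p = 2.73e-23) and Ezr at 0.41 ± 0.03 (SE, edgeR adjusted p = 1.92e-22) between the mimics, and Myl6 at -0.51 ± 0.02 (SE, edgeR adjusted p = 2.63e-52).

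Some genes separated the mimics. Flna, Flnc, Lmod1 and Srf were lower after poly(I:C) than after either poly(dA:dT) or mock and were not called between poly(dA:dT) and mock. Csrp1 had the same pattern upward, at 0.30 ± 0.02 (SE, edgeR adjusted p = 1.28e-23) between the mimics. With total counts, 11 genes in place of 9 were called higher after poly(dA:dT) than in mock. Csrp1 was among those added, and the other addition came from Flna, Flnc, Lmod1 or Srf. Actn1 was higher after poly(I:C) than after poly(dA:dT), at 0.11 ± 0.02 (SE, edgeR adjusted p = 2.28e-05). Mkl2 and Myh9 were lower, at -0.13 ± 0.05 (SE, edgeR adjusted p = 0.0136) and -0.06 ± 0.02 (SE, edgeR adjusted p = 0.00244). The call of Mkl2 was lost without poly(dA:dT) replicate 2 (-0.12, adjusted p = 0.0513) or poly(I:C) replicate 1 (-0.10, adjusted p = 0.0932), and that of Myh9 without poly(I:C) replicate 2 (-0.04, adjusted p = 0.0574). Calls of Cnn1 between the mimics were lost without poly(dA:dT) replicate 1 (-0.04) or poly(I:C) replicate 1 or 2 (-0.08 each), and that of Cfl2 without poly(I:C) replicate 1 (-0.08, adjusted p = 0.0851). Myh10 gained a call without poly(I:C) replicate 1 (-0.06, adjusted p = 0.0457).

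Per kilobase of merged exon, the 47 genes spanned a wide range of levels, and cofilin led in each group. Cfl1 stood at 449 ± 5.35 after poly(I:C), 575 ± 5.46 after poly(dA:dT) and 686 ± 11.3 in mock (CPM per kb, SD, n = 3 each). Tpm4 was next, at 272 ± 7.61 after poly(I:C), 342 ± 4.62 after poly(dA:dT) and 401 ± 7.88 in mock. The lowest were Mkl2, at 4.87 ± 0.233 after poly(I:C), 5.31 ± 0.0873 after poly(dA:dT) and 4.63 ± 0.139 in mock, and Mylk, at 1.72 ± 0.0814 after poly(I:C), 1.76 ± 0.0685 after poly(dA:dT) and 1.67 ± 0.0315 in mock. Of the 46 neighbouring pairs in the order of levels, means ± SD overlapped in 21 pairs after poly(I:C), 11 after poly(dA:dT) and 13 in mock, so the exact order is unresolved at those places.

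**Figure D3:**
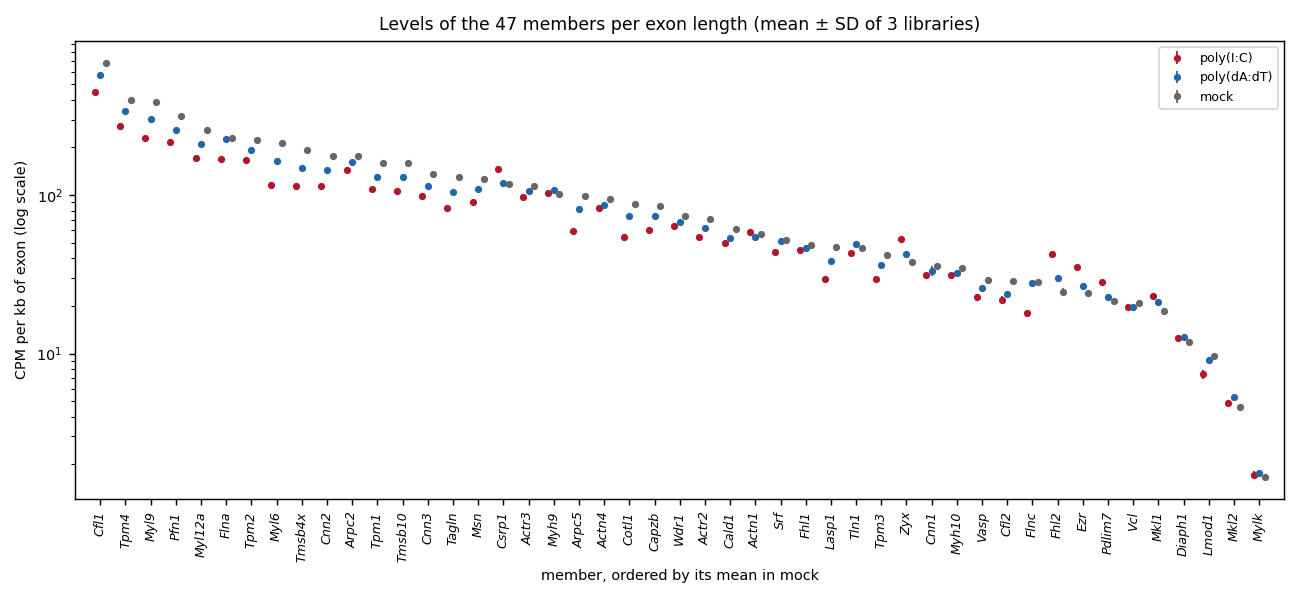
Level of each of the 47 genes as CPM per kb of merged exon, on a log scale, mean ± SD of 3 libraries, for poly(I:C) (red), poly(dA:dT) (blue) and mock (grey), ordered by the mock mean. Cfl1 is highest in all groups and Mylk lowest, and red points sit under grey ones for most genes on the left.

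Among the 47, the genes with the shortest merged exons had the lowest median fold changes. The 7 with under 2 kb of merged exon had a median log2 fold change of -0.66 after poly(I:C) and -0.29 after poly(dA:dT), although Fhl2 and Csrp1 of this bin rose after poly(I:C). The 18 of 2 to 4 kb had medians of -0.44 after poly(I:C) and -0.23 after poly(dA:dT), and the 17 of 6 kb or more had -0.18 and -0.09. The 5 in between, of 4 to 6 kb, had 0.04 and -0.07. Across the 47 genes Spearman's rank correlation between exon length and fold change was 0.40 after poly(I:C) and 0.49 after poly(dA:dT), given without a p because the genes share their libraries. Over 14137 tested genes with a length, it was 0.05 and 0.08, and the medians of the shortest bin were -0.09 and -0.08. With mean level, the correlation was -0.34 and -0.35 over the 47 genes and -0.37 and -0.29 over all. The part of length or level in the fold changes was not tested.

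**Figure D4:**
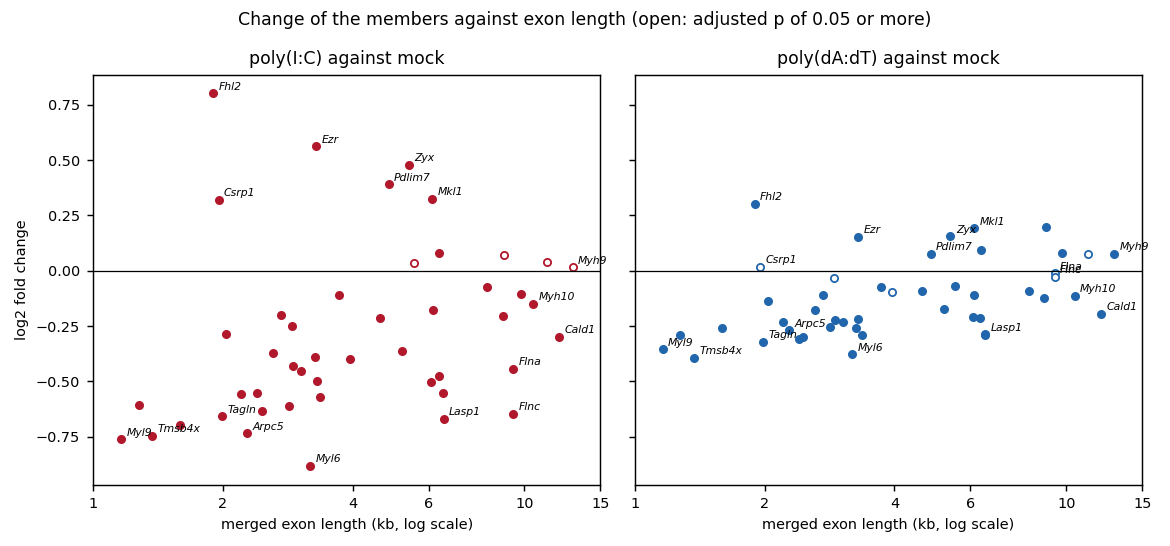
Log2 fold change against merged exon length in kb (log scale) for the 47 genes, after poly(I:C) on the left and poly(dA:dT) on the right, with open points where the adjusted p was 0.05 or more. The short genes Myl9 and Tmsb4x lie low and the long genes Myh9 and Myh10 lie near 0, while the short gene Fhl2 lies highest.

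Related genes outside the 47 were counted from lists of the same pathway. Of 14 other genes of the Arp2/3 and WAVE complexes, 9 fell (64.3%), 1 rose (7.14%) and 4 were not called after either mimic, with medians of -0.34 after poly(I:C) and -0.15 after poly(dA:dT). Of all genes tested, 36.3% fell and 39.8% rose after poly(I:C), and 26.2% fell and 26.6% rose after poly(dA:dT). Among all 2700 tested genes of at least 100 CPM, 67% fell after poly(I:C) and 59.7% after poly(dA:dT). The Arp2/3 subunit genes Arpc3, Arpc4, Arpc1b and Arpc1a stood at -0.79, -0.68, -0.62 and -0.55 after poly(I:C). Arpc5l, another subunit gene, did not share this fall. It averaged 112 ± 2.27 CPM after poly(I:C), 106 ± 0.292 CPM after poly(dA:dT) and 109 ± 1.63 CPM in mock. Of 12 further genes for capping, severing and monomer binding, 11 fell (91.7%) and 1 rose after poly(I:C), and 10 fell (83.3%) and 1 rose after poly(dA:dT). Profilin 2 (Pfn2, -0.85 ± 0.04), gelsolin (Gsn, -0.70 ± 0.02) and Capg (-0.68 ± 0.03) were the lowest of them after poly(I:C). Of the actin isoforms, 4 were tested and 3 fell after each mimic (75%). Actg1, γ-actin, averaged 2150 ± 26 CPM after poly(I:C), 2873 ± 19.6 CPM after poly(dA:dT) and 3438 ± 29.7 CPM in mock, and Acta2, smooth muscle actin, 2111 ± 1.28 CPM after poly(I:C), 2560 ± 14.1 CPM after poly(dA:dT) and 3154 ± 31 CPM in mock. Among 12 other myosins and paralogs, 9 fell (75%) and Myo10, the filopodial myosin, rose (1.20 ± 0.03) after poly(I:C), and 6 fell (50%) and 2 rose after poly(dA:dT).

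Of 10 formins, 5 rose and 3 fell after poly(I:C), shares of 50% and 30% that lie near the 39.8% and 36.3% of all genes tested. The highest was Fmnl2 (0.77 ± 0.04), and after poly(dA:dT) 1 formin rose, 1 fell and 8 were not called. Among 15 focal adhesion genes, 5 rose (33.3%) and 7 fell (46.7%) after poly(I:C), and 3 rose (20%) and 6 fell (40%) after poly(dA:dT), beside 26.6% and 26.2% of all genes in the poly(dA:dT) comparison. After poly(I:C), 39.8% of all genes tested rose and 36.3% fell. Most of the 15 had at least 100 CPM, and of all 2700 tested genes at that level 25.1% rose and 67% fell after poly(I:C). After poly(dA:dT), 19.9% of the 2700 rose and 59.7% fell. The integrin β1 gene Itgb1 was lowest after poly(I:C), at -0.76 ± 0.02.

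The 12 targets of Srf that encode no actin-binding protein were mostly higher. After poly(I:C), 10 rose (83.3%), 1 fell and 1 was not called, with a median of 1.52, where 39.8% of all genes tested rose. After poly(dA:dT) 7 rose (58.3%), 1 fell and 4 were not called, with a median of 0.55, where 26.6% of all genes rose. Between the mimics, 10 were called higher after poly(I:C) (83.3%) and 2 lower (16.7%), with a range of -1.32 to 2.34. Of all genes tested, 31.3% were higher and 32.1% lower in that comparison. One of the 2 was lower by at least 1.5-fold. Against mock, the lowest fold change on the list was -0.12 after either mimic. The genes named next were chosen by size of change and all rose, so they do not stand for the list. Cyr61, Ctgf, Thbs1 and Ankrd1, also listed, are not among them, and their values are not given here. Egr1, an immediate early transcription factor gene, averaged 450 ± 6.78 CPM after poly(I:C), 123 ± 3.39 CPM after poly(dA:dT) and 35.1 ± 2.04 CPM in mock, at 3.68 ± 0.03 (SE, edgeR adjusted p = 3.57e-149) after poly(I:C) and 1.80 ± 0.04 (SE, edgeR adjusted p = 1.59e-94) after poly(dA:dT). Egr2, Fos and Ier2 stood at 4.02 ± 0.09, 3.24 ± 0.12 and 2.69 ± 0.03 after poly(I:C). Several of these genes also answer to factors other than Srf.

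**Figure D5:**
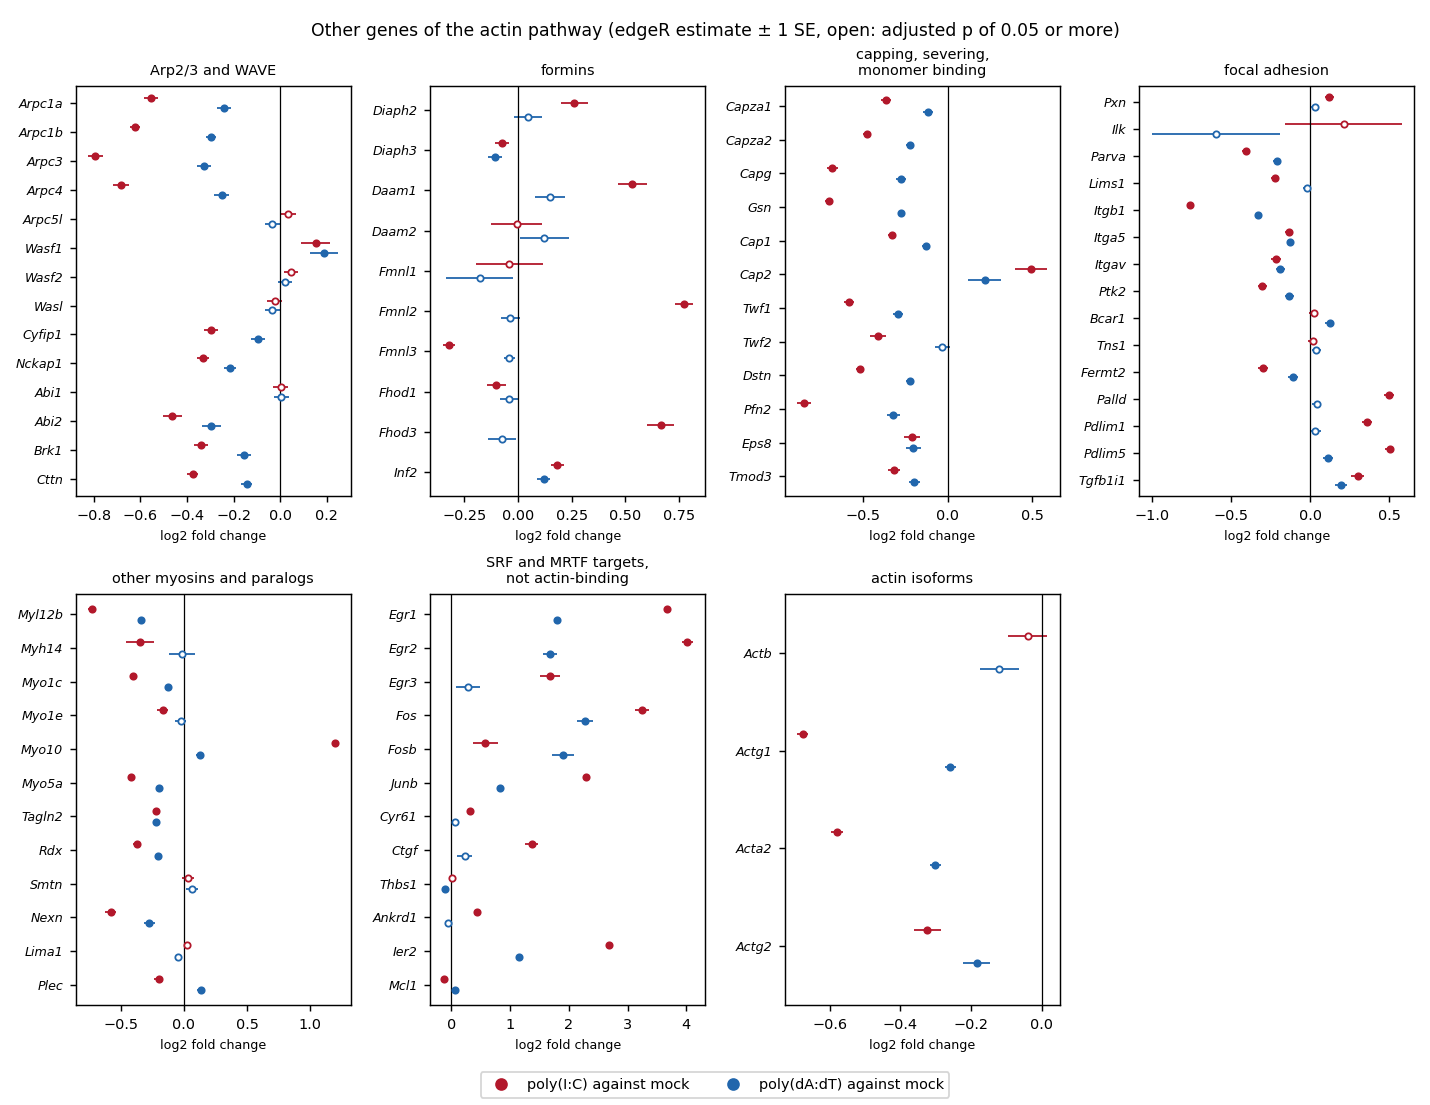
Log2 fold change ± 1 SE of related genes outside the 47 after poly(I:C) (red) and poly(dA:dT) (blue) against mock, 1 panel per list, each with its own axis, open points where the adjusted p was 0.05 or more. Arp2/3 and capping genes lie mostly left of 0, while Egr1 at 3.68 and Egr2 at 4.02 after poly(I:C) lie far to the right.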

How the data were processed

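Raw counts per gene, deposited as 1 file per library, were taken as they stood. Build GRCm38.p4, TopHat2 2.1.0, HTSeq and DESeq2 are named per the submitters' processing notes, and the TruSeq kit that the labels' protocols name does not mark strand. Annotation release, strand setting and handling of multi-mapped reads: not given in the sources used here. Hence 15 of the 47 genes, which share exon bases with another counted gene, may hold reads of it. Symbols, positions and merged exon lengths came from GENCODE M21 (GRCm38). All 9 libraries entered 1 edgeR 4.0.16 fit (R 4.3.3, TMM scaling, filterByExpr by group, robust quasi-likelihood test, two-sided), with a mean per group and 6 residual degrees of freedom before moderation. P-values were Benjamini-Hochberg adjusted over all 14176 genes tested. An adjusted p under 0.05 makes a call of higher or lower, also written as rose or fell. CPM used TMM-scaled library sizes, and each SE was derived from the test as the absolute log2 fold change over the root of F. The fit was tested on simulated counts. Replicate libraries differed by more than sampling noise (chi-square per degree of freedom 1.64 to 2.1 in 9 pairs), so each counted once. The labels name no batch. The 47 genes, the lists and the promoter motifs were chosen with earlier results of these data known. Values in every library are given for Srf, Mkl1 and Mkl2, for the called genes with the 5 highest and 5 lowest fold changes per comparison, and for genes called in opposite directions. Of each other list, up to 4 called genes with the largest change are named, and 1 list is not reported here. Alternatives were DESeq2 1.42.0 size factors and test, upper-quartile factors, total counts, other filters, only the groups compared, a replicate block, and each library left out.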

Additional observations from a re-analysis of the deposited data

How the results depend on the processing

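Across the alternatives, 2297 of 2397 results for single genes kept direction and side of the threshold. Of the rest, 62 lost their call, 12 gained a call in the same direction and 4 called values reversed. In 22 results an uncalled value changed sign, and calls gained among these were not counted. With total library counts in place of TMM, the median of all genes tested was 0.15 after poly(I:C), against 0.04 with TMM, and without a filter, over more genes, it was also 0.15. On the same scale the 47 genes had a median of -0.26 after poly(I:C), with 11 called higher and 32 lower, where 47.2% and 28.7% of all genes were. After poly(dA:dT) the median was -0.06, with 11 higher and 25 lower, where 35.3% and 16.9% of all genes were, and between the mimics it was -0.15, with 30 lower. The values that reversed did so with total counts: Actn1 after poly(dA:dT) at 0.01, and Vcl, Tln1 and Fhl1 after poly(I:C) at 0.04, 0.01 and 0.00. Upper-quartile factors, no filter and at least 50 counts in 3 libraries gave medians of -0.34, -0.40 and -0.33 after poly(I:C), and of -0.18, -0.22 and -0.16 between the mimics. With 1 library left out, medians ranged from -0.40 to -0.36 after poly(I:C), -0.16 to -0.13 after poly(dA:dT) and -0.21 to -0.19 between the mimics, with 35 to 36, 30 to 32 and 33 to 35 genes lower and 6 to 7, 7 to 9 and 7 to 7 higher. A call was lost under at least 1 alternative by 21 of 126 called results, all between -0.15 and 0.09 in the TMM fit. The cause of these shifts was not tested beyond the change of scale, filter or samples itself.

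Replicate numbers do not pair the libraries by the labels, and 0 of 9 same-numbered pairs had deviations correlated above 0.1, while 4 of 9 libraries correlated best with their own number. With the replicate number as a block, 36 genes were called lower and 6 higher after poly(I:C), 32 and 9 after poly(dA:dT), and 35 and 7 between the mimics, with medians of -0.37, -0.14 and -0.19. The gene no longer called higher after poly(I:C) under the block was Diaph1 (0.08, adjusted p = 0.0502). No gene of the 47 had fewer than 313 counts in a library.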
